A study of Homo sapiens with 62 samples.

Results

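Expression changes shared by every A2058 clone that lost 1 extra copy of 7p or of 8q were examined, for genes on neither arm. A2058 is an established human melanoma cell line. Its parental cells (WT, 4 libraries) carry gains of 1q, 7p and 8q. The 5 clones were grown from single cells after 1 extra arm had been removed with the version of the ReDACT chromosome-engineering method that the labels call CO. There were 3 7p-loss clones (6 libraries) and 2 8q-loss clones (4 libraries), with 2 libraries per clone. Each clone kept the other gains, so no arm was lost in all 5. The 10 loss libraries were pooled and set against the 4 WT libraries, which makes 14 of the 62 libraries of the series. Cells of all groups had been plated 24 h before RNA was extracted. The WT libraries are of the parental line, and no A2058 clone that had kept all gains was analysed here. Effects of cloning, of the engineering and of losing any arm therefore cannot be told apart in a change that all 5 clones share.

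A melanoma line makes proteins of the pigment-cell lineage under the transcription factors SOX10 and MITF. Among them are the enzymes of melanin synthesis (TYR, TYRP1 and DCT) and the melanosome proteins PMEL and MLANA, and MLANA peptides are also a well-known target of T cells in melanoma. Many melanomas also express cancer-testis genes such as the MAGE family, which are otherwise read mainly in germ cells and lie mostly on the X chromosome. Clones grown from single cells of 1 line can differ in expression from the line and from each other, so a change is taken as shared here where all 5 clones show it.

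Total counts ran from 19595543 to 28622197 over the 14 libraries, and the mitochondrial share from 1.93% to 4.6% in loss libraries and from 2.52% to 4.12% in WT. The lineage markers SOX10, MITF and PMEL were detected in each library, and CD3E and CD68, of blood cells, had at most 3 counts in any. The summed level of the 9 epithelial markers was 91.5 to 118 CPM (counts scaled to a common library size) in WT and 44.5 to 131 in loss libraries, most of it KRT18, and that of the 6 leukocyte and endothelial markers did not exceed 1.34 CPM. The targeted arm was lowered in each clone, with a median log2 shift of -0.54 to -0.46 for 7p in the 7p-loss clones and of -0.55 to -0.52 for 8q in the 8q-loss clones. Outside those arms, 4 of 195 pairs of clone and arm were shifted by over 0.2. They were 17p (-0.49), 18p (0.25) and 13q (0.20) in 7p-loss clone 1 and 13q (-0.41) in 8q-loss clone 1, and no arm was past 0.2 in every clone. In a principal component analysis of the 1000 most variable genes, the first component (44.8% of the variance) separated 7p-loss clone 1 from the other 12 libraries. Results that rest on it are given with and without that clone.

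Of 15134 genes tested outside 7p and 8q, 9 (0.0595%) were called by edgeR's quasi-likelihood test at an adjusted p under 0.05. All 9 were lower in the loss libraries, 0 were higher, and 675 genes (4.46%) had an unadjusted p under 0.05 (445 higher and 230 lower). Each of the 9 was lower in 5 of 5 clones, and its 10 loss libraries all lay below its 4 WT libraries. The 9 are ATP10A and SLC37A2 (membrane transport), CPPED1, GRK3 and PTPRD (enzymes of phosphate signalling), MLANA and MAGEC2 (tumour antigens), COL3A1 (a collagen) and ZNF558 (a zinc finger protein). They lie on 8 chromosomes, and 2 of them, MLANA and PTPRD, share 9p. The count moved with the method, since DESeq2 called 49 (35 lower, 14 higher) and leaving out 7p-loss clone 1 gave 41. It fell to 5 with each clone's libraries summed, 4 of them among the 9, and to 3 among genes with a mean CPM of at least 1, a filter that tests fewer genes. A block on the replicate number gave 4, but loss libraries are numbered 1 and 2, so WT replicates 3 and 4 have no partner in that fit, and WT replicates 1 and 2 without a block gave 5. ATP10A, CPPED1, MLANA and COL3A1 were called both with clones summed and with the block, and MAGEC2, GRK3, ZNF558, SLC37A2 and PTPRD in neither.

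Looser rules over all tested genes set these 9 in context. A difference in 1 direction in all 5 clones was found for 1968 genes (13% of those tested), 1069 higher and 899 lower. All 10 loss libraries lay outside the WT range for 62 genes (0.41%), 28 of them higher and 34 lower. Every clone was past a log2 difference of 1, that is 2-fold, in 1 direction for 18 genes (0.119%), 16 lower and 2 higher, and 8 of the 18 were among the 9 called. Single clones differed far more: between 622 genes (8q-loss clone 2) and 1860 genes (7p-loss clone 1) were past that size in any 1 clone.

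Promoter sequence was at hand for 6 of the 9 genes in the RefSeq table of GRCh38.p14 (250 bases before to 50 after a start). The 4 shown were chosen because they differ in CpG content, the letters that DNA methylation can mark, while their genes fell together. Each runs 5′ to 3′ on the gene's strand, and capitals mark each CpG.
ATP10A, chr15:25863278-25863577, minus strand: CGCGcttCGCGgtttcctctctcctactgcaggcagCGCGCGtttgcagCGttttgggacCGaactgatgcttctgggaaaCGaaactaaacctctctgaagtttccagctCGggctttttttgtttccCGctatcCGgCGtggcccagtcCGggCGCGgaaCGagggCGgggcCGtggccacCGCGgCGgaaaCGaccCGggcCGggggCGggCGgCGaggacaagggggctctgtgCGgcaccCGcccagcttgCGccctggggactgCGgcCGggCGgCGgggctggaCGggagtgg
CPPED1, chr16:12803838-12804137, minus strand: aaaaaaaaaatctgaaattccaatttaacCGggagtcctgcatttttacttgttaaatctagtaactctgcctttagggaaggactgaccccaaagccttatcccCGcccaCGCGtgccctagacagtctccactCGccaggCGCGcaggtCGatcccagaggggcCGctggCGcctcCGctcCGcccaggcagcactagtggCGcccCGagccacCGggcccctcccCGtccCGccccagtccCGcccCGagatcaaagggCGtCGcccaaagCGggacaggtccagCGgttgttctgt
MLANA, chr9:5890639-5890938, plus strand: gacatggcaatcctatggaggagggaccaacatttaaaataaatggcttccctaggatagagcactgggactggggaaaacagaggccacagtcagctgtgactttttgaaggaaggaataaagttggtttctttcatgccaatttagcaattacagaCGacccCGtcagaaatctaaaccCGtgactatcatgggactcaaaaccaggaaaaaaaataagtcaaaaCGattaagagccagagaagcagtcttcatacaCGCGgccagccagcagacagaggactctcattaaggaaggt
MAGEC2, chrX:142205241-142205540, minus strand: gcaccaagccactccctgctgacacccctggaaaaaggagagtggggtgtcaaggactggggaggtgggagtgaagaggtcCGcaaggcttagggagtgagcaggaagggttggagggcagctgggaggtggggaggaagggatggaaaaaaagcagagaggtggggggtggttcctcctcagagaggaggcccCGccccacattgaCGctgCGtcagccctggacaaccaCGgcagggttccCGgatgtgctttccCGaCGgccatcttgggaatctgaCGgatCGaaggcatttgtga
The search was for CG, which reads the same on both strands. The ATP10A promoter holds 37 CpGs, CPPED1 23, MAGEC2 10 and MLANA 6. Over 35116 promoters of the same length the median was 14, with quartiles of 4 and 28. ATP10A is above the upper quartile, and the other 3 lie between the quartiles. ZNF558 has starts with 34 and 4 CpGs and PTPRD has starts with 40, 7 and 4. The 6 genes thus do not share 1 kind of promoter by this count, and methylation was not measured here.

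The 2 membrane transport genes had the largest and the smallest fitted log2 fold change of the 9. The largest, of ATP10A, cannot be ranked against that of CPPED1, since both genes were near 0 counts in the loss libraries. ATP10A (ENSG00000206190, chromosome 15, 25677273 to 25865172, minus strand, GRCh38) encodes a flippase, which moves phospholipids across the plasma membrane. It had 32, 59, 42 and 50 counts in WT replicates 1 to 4. All 6 7p-loss libraries had 0, and the 4 8q-loss libraries held 1 count in all, in 8q-loss clone 2 replicate 1. With 183 counts in WT and 1 in the loss libraries, the level was 464 times higher in WT (95% exact interval 82.3 to 18431, counting error only). The fitted log2 fold change was -7.67 (SE 0.44, adjusted p = 2.96e-07), a size that depends on how the model treats 0 counts. Its level in WT was low, 2.07 ± 0.392 CPM (SD, n = 4), and the groups did not overlap. With bulk RNA, fewer cells with the transcript and less transcript per cell cannot be told apart.

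SLC37A2 (ENSG00000134955, chromosome 11, 125063067 to 125090312, plus strand) encodes a sugar-phosphate carrier of the endoplasmic reticulum. Its WT libraries were at 17.1, 14.3, 13.98 and 11.3 CPM. The 10 loss libraries ran from 5.95 to 10.4 CPM with a median of 7.63. This is the smallest change of the 9, to 54.9% of the WT mean (log2 fold change -0.86, SE 0.14, adjusted p = 0.0368). The highest loss library, 7p-loss clone 3 replicate 2, lay just under the lowest WT library. The call was lost when any 1 of 11 libraries was left out (adjusted p 0.0613 to 0.317) and was kept without 7p-loss clone 1 replicate 1, 7p-loss clone 3 replicate 2 or WT replicate 4 (0.0122 to 0.0413).

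CPPED1, GRK3 and PTPRD, grouped after the call, encode enzymes that add or remove phosphate. CPPED1 (ENSG00000103381, chromosome 16, 12659799 to 12804017, minus strand) encodes a phosphatase that acts on the kinase AKT. Its WT libraries had 41, 42, 44 and 40 counts, the tightest WT values among the 9 genes. In the loss libraries 8 had 0, 7p-loss clone 2 replicate 1 had 2 and 8q-loss clone 2 replicate 1 had 1. The ratio of WT to loss was 141 (95% exact interval 47.5 to 692, counting error only), and the fitted log2 fold change was -6.65 (SE 0.52, adjusted p = 1.21e-05). As for ATP10A, the transcript was close to undetected in every clone of both arms.

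GRK3 (ENSG00000100077, chromosome 22, 25564849 to 25729294, plus strand) encodes a kinase that phosphorylates activated G protein-coupled receptors and so quiets their signal. WT libraries were at 2.56, 1.57, 2.55 and 2.33 CPM. Loss libraries ran from 0.0981 to 0.725 CPM (median 0.363), so the transcript was still read in every one, at 2 to 15 counts. The log2 fold change was -2.71 (SE 0.35, adjusted p = 0.00322), and the clones ran from -3.49 (7p-loss clone 2) to -1.99 (8q-loss clone 2). With the 2 libraries of each clone summed, adjusted p was 0.0785, above the threshold.

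PTPRD (ENSG00000153707, chromosome 9, 8314246 to 10612723, minus strand) encodes a receptor-type tyrosine phosphatase that is often deleted or mutated in melanoma. It was the lowest of the 9 in WT, with 9, 11, 16 and 12 counts, which is under the 1 CPM that the rule for named genes asks for. It is named because it completes the called genes. The loss libraries had 0 to 3 counts, and 6 of the 8 counts in all came from 7p-loss clone 1. The log2 fold change was -3.74 (SE 0.62, adjusted p = 0.0368), and the WT to loss ratio was 15.2 (95% exact interval 7.14 to 37.2, counting error only). Of 7 fits that left out 1 library and still tested the gene, 6 lost the call (adjusted p 0.0656 to 0.29), and the one without 7p-loss clone 1 replicate 1 kept it (0.0114).

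Both tumour antigens were read well in WT. MLANA (ENSG00000120215, chromosome 9, 5890802 to 5910606, plus strand) stood at 23.9, 21.5, 13.9 and 21.6 CPM in WT. Loss libraries ran from 1.59 to 5.03 CPM with a median of 2.15. Each loss library was thus below the lowest WT library, WT replicate 3, by more than the whole range of the loss libraries. The mean fell to 12.1% of WT (log2 fold change -3.03, SE 0.25, adjusted p = 1.33e-05), and clones lay between -3.48 (7p-loss clone 3) and -2.32 (7p-loss clone 1). KIAA2026 overlaps MLANA on the other strand, and it was at 19.4 CPM in WT and 21.1 in the loss libraries.

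MAGEC2 (ENSG00000046774, chromosome X, 142202345 to 142205290, minus strand) is a cancer-testis gene whose protein partners a ubiquitin ligase. WT libraries were at 8.90, 8.34, 5.92 and 7.12 CPM and loss libraries at 0 to 0.499 CPM (median 0.118). The 4 libraries of 7p-loss clone 2 and 8q-loss clone 1 had 0 counts, and the 2 of 7p-loss clone 1 had 10 and 14. The log2 fold change was -5.34 (SE 0.64, adjusted p = 0.00136), and adjusted p was 0.103 with each clone's libraries summed.

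COL3A1 (ENSG00000168542, chromosome 2, 188974320 to 189012746, plus strand) encodes the chain of type III collagen, a fibre of soft connective tissue. WT libraries were at 5.58, 4.98, 6.90 and 7.97 CPM. The loss libraries lay between 0 and 0.359 CPM (median 0.15), at most 8 counts each. The mean fell to 2.65% of WT (log2 fold change -5.20, SE 0.51, adjusted p = 0.000125), and the clones ran from -5.61 to -4.21.

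ZNF558 (ENSG00000167785, chromosome 19, 8806170 to 8832328, minus strand) encodes a KRAB zinc finger protein, a family that silences DNA, mainly transposons. WT libraries were at 1.79, 2.36, 1.25 and 2.37 CPM. Loss libraries lay between 0 and 0.49 CPM (median 0.067), with 0 counts in the 4 libraries of 7p-loss clone 1 and 8q-loss clone 2. The log2 fold change was -4.03 (SE 0.66, adjusted p = 0.0367). The call was lost in 10 of 14 fits that left out 1 library (adjusted p 0.0536 to 0.199) and kept without either library of 7p-loss clone 1, without 7p-loss clone 2 replicate 2 or without 8q-loss clone 1 replicate 2 (0.00507 to 0.0434).

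**Figure D1:**
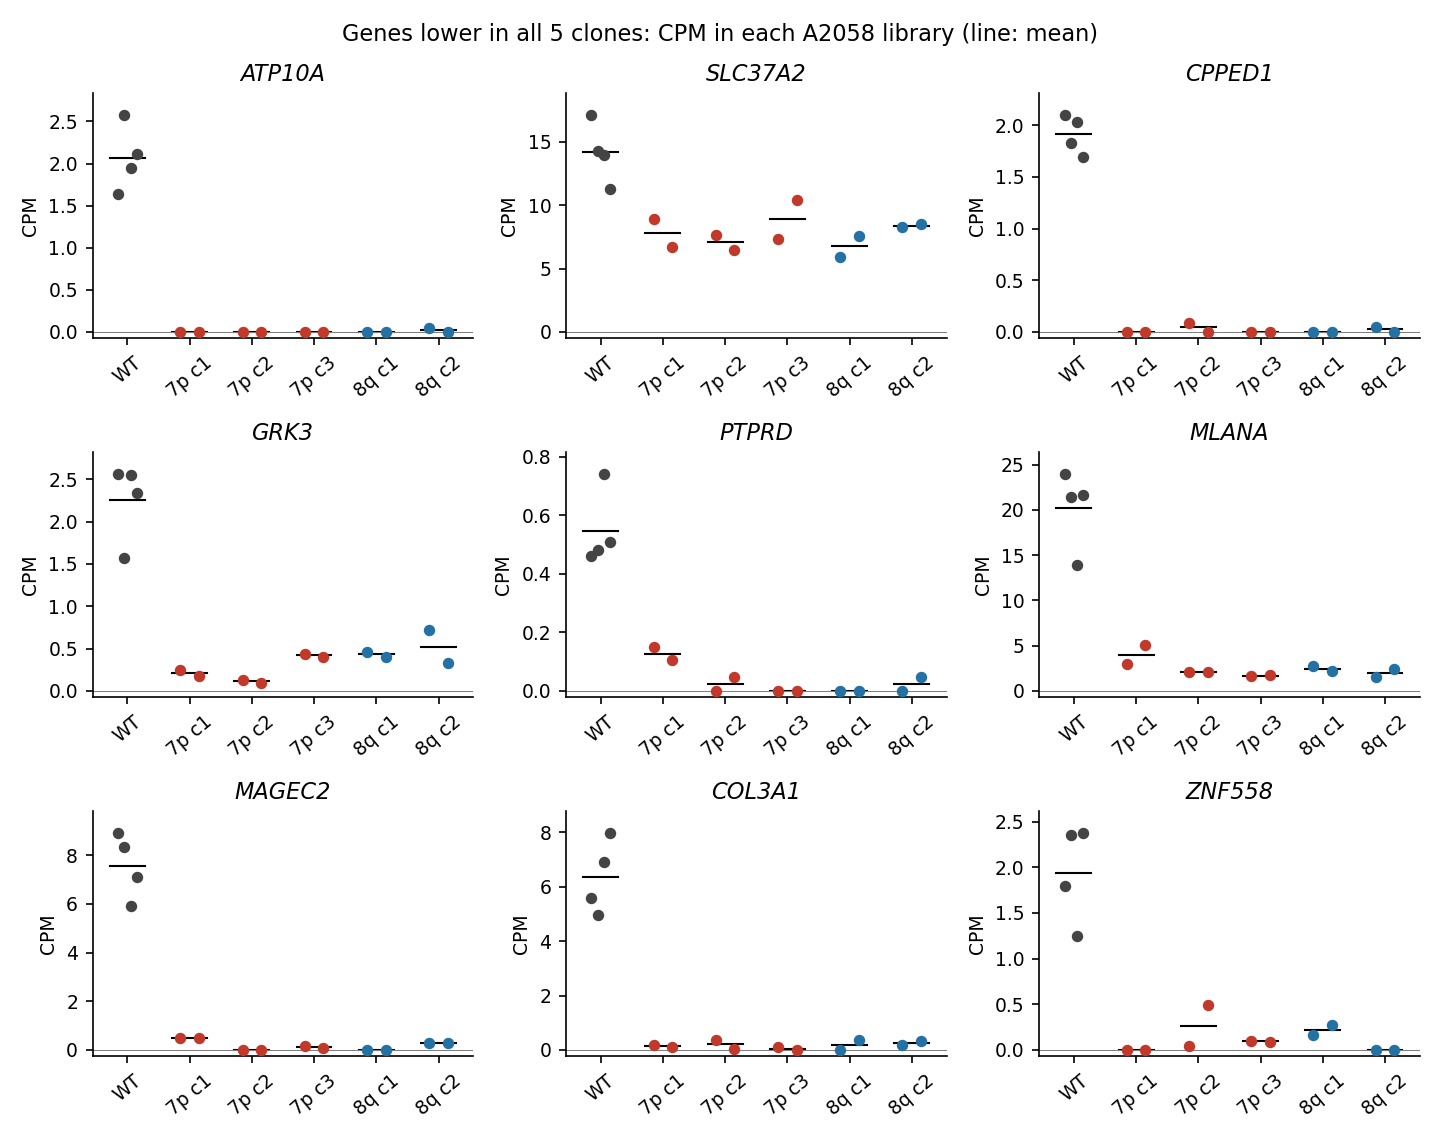
CPM of the 9 genes in each A2058 library, 1 panel per gene with its own linear axis; points are libraries (4 WT, 2 per clone; c1 to c3 number the clones of an arm) and lines are means. Each of the 10 loss libraries lies below the 4 WT libraries in each panel, near 0 for ATP10A and CPPED1 and at 54.9% of the WT mean for SLC37A2.

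The calls also held up differently against other ways of analysing the data. ATP10A, CPPED1, MLANA and COL3A1 were called in each of the 32 alternatives that tested them (31, 31, 32 and 32). The highest adjusted p among those was 0.0141, 0.0141, 0.0141 and 0.0216 in the same order. MAGEC2 lost the call in 3 of 32 and GRK3 in 5 of 31, while ZNF558 lost it in 17 of 31, SLC37A2 in 22 of 32 and PTPRD in 14 of 21. All 9 stayed lower in each alternative that tested them. That direction was close to fixed beforehand, since every loss library lay below every WT library for each of these genes. Subsets, sums or rescalings of the same libraries could hardly reverse it, so the kept direction is a description. The call itself could be lost, and 4 of the 9 kept it throughout.

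Clones of the 2 arms were then compared with each other. Of all genes outside 7p and 8q, 4.81% were called between 7p-loss and 8q-loss libraries, and 0 of the 9 were, with 1 (GRK3) at an unadjusted p under 0.05. That 0 is a description, since a gene that differed much between the arms could hardly pass the pooled test that chose the 9. Differences of 7p-loss minus 8q-loss on the log2 scale were 0.06 for SLC37A2 (95% interval -0.29 to 0.42, adjusted p = 0.856) and 0.23 for MLANA (-0.42 to 0.88, adjusted p = 0.696). Those intervals leave out a 2-fold difference between the arms for both genes. GRK3 had a difference of -0.93 (interval -1.77 to -0.08), with an unadjusted p of 0.034 that adjustment raised to 0.177. For COL3A1, MAGEC2, CPPED1, ZNF558 and PTPRD the intervals reached past 2 on the log2 scale on at least 1 side. A 2-fold difference between the arms in at least 1 direction was therefore not excluded for these genes. ATP10A had 1 count over both arms and gave nothing to compare. Against the 4 WT libraries, 0.515% of genes were called in the 7p-loss libraries, 9 of the 9 among them, and 0.192% in the 8q-loss libraries, 8 of the 9 among them, with ZNF558 at an adjusted p of 0.0693. Those counts are a description, since the 9 were chosen on the same loss and WT libraries.

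Genes beside the 9 were examined next. Within 1 Mb of their ends 112 genes were tested and 0 were called by edgeR or by DESeq2, where edgeR called 0.0595% of all genes. An unadjusted p under 0.05 was found for 7 of them, against 4.46% of all genes, so neither count sets the neighbours apart from other genes. The median log2 fold change of each gene's neighbours lay between -0.08 and 0.14, and 2 neighbours were below a log2 fold change of -1 (KIAA1671 at -1.53, near GRK3, and C2orf88 at -1.01, near COL3A1). UBE3A, a neighbour of ATP10A, was at 121 CPM in WT and 119 in the loss libraries (log2 fold change -0.01, SE 0.08). COL5A2, 19.1 kb from COL3A1, was at 1.24 and 1.61 CPM (0.37, SE 0.35). SNX29, next to CPPED1, was at 14.6 and 15.6 CPM (0.10, SE 0.16). TMEM218, 6.23 kb from SLC37A2, was at 14.1 and 12.99 CPM (-0.12, SE 0.16). No arm outside 7p and 8q was shifted in 1 direction by more than 0.0376 in all 5 clones. MAGEC1, the tested gene closest to MAGEC2, differed between clones: it was at 98.3 to 120 CPM in 7p-loss clones 2 and 3 and 8q-loss clone 1, against 59.3 to 83.5 in WT, but under 1 CPM in 7p-loss clone 1 and 8q-loss clone 2. That split crosses the arms. The clones with MAGEC1 under 1 CPM had the most MAGEC2 of the loss clones, at 6 to 14 counts per library. The other loss clones had 0 to 3 counts of MAGEC2, and WT libraries had 128 to 191.

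**Figure D2:**
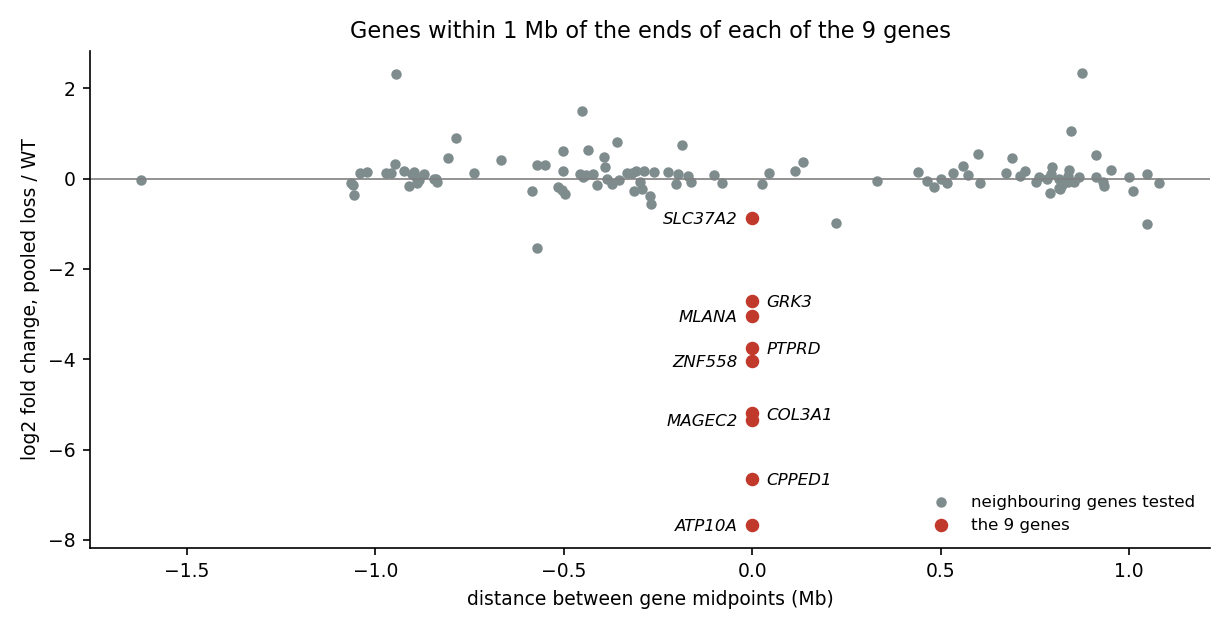
Pooled log2 fold change (edgeR) of the 9 genes, at distance 0, and of the 112 tested genes within 1 Mb of their ends, against the distance between gene midpoints in Mb. The neighbours scatter around 0, with 2 below -1 and others as high as 2.33, while 8 of the 9 genes lie below -2.

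The A2058 clones that lost 1q (4 libraries, 2 clones) give values for the same genes against the same 4 WT libraries, so the comparisons are not independent. In that comparison 48.7% of genes were called, and 7 of the 9 were, 5 lower and 2 higher. ATP10A had 0 counts in all 4 1q-loss libraries. MLANA (log2 fold change -3.82, SE 0.30), MAGEC2 (-6.94, SE 0.45), PTPRD (-2.72, SE 0.56) and COL3A1 (-1.73, SE 0.39) were also lower there. ZNF558 (2.08, SE 0.21, adjusted p = 1.88e-05) and SLC37A2 (1.75, SE 0.21, adjusted p = 6.12e-05) were higher in the 1q-loss clones. CPPED1 had 14 and 11 counts in 1q-loss clone 1 but 217 and 171 in clone 2, around the 40 to 44 of WT (1.23, SE 0.76, adjusted p = 0.204). GRK3 had 28 and 33 counts in clone 1 and 142 and 136 in clone 2 (0.72, SE 0.47, adjusted p = 0.233). So 5 of the 9 were lower in A2058 clones of all 3 arms, and 4 were not lower in the 1q-loss comparison.

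**Figure D3:**
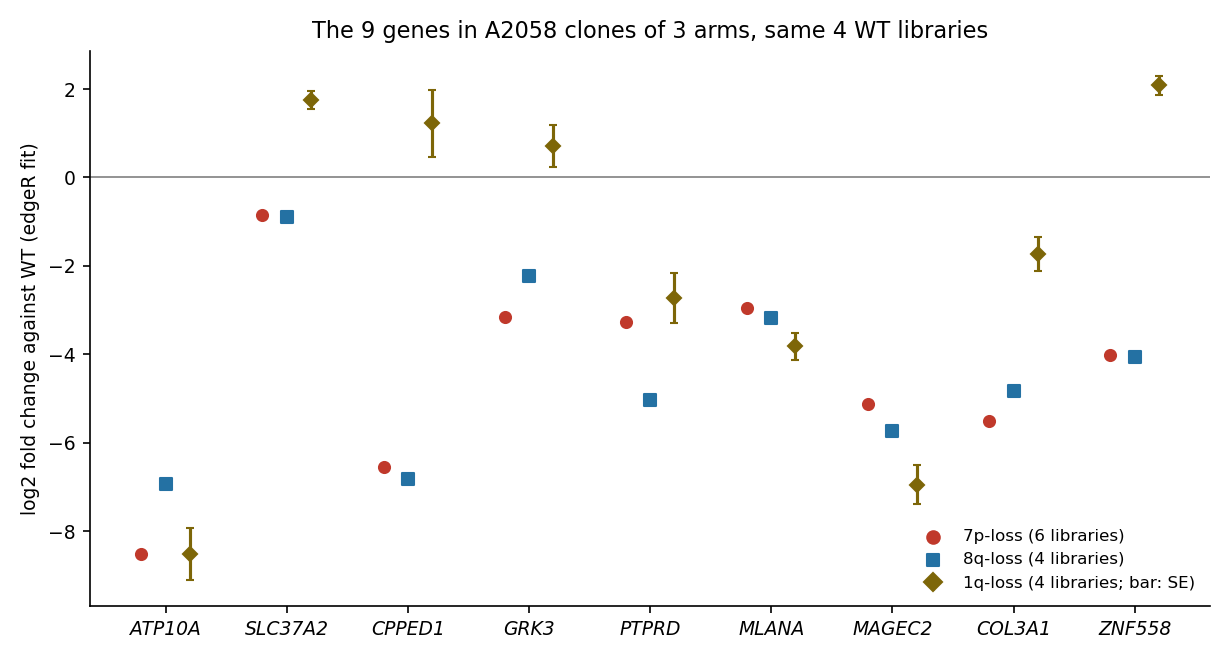
Log2 fold change against the same 4 WT libraries (edgeR) for the 9 genes in the 7p-loss, 8q-loss and 1q-loss libraries; bars on the 1q-loss values are SE. The 7p-loss and 8q-loss values are below 0 for each gene, and the 1q-loss values are above 0 for SLC37A2, CPPED1, GRK3 and ZNF558; sizes for ATP10A rest on groups at or near 0 counts.

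HCT116, a colorectal cancer line, has 8q-loss clones with controls of their own (2 WT and 4 8q-loss libraries). There 0.116% of the genes tested in both fits were called, and 0 of the 4 of the 9 that were expressed enough to test. CPPED1 (log2 fold change -0.47, SE 0.30), GRK3 (0.79, SE 0.53), ZNF558 (-0.04, SE 0.62) and SLC37A2 (0.10, SE 0.57) all had an adjusted p of 1.00. ATP10A, MAGEC2 and PTPRD had 0 counts in all 6 HCT116 libraries, and MLANA and COL3A1 had at most 5 and 13.

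The pigment-cell list has 10 genes, and MLANA is the 1 that was called. Its median log2 fold change was -0.43 against 0.02 over all genes tested outside 7p and 8q. The lineage factors were near their WT level: SOX10 was at 594 CPM in WT and 607 in the loss libraries (log2 fold change 0.03, SE 0.13), and MITF at 172 and 147 (-0.22, SE 0.17). DCT, which isomerises a melanin precursor, was lower in each clone, by -1.68 to -0.86, but its libraries overlapped (832 to 1727 CPM in WT, 287 to 1777 in loss; adjusted p = 0.975). The pigment-cell values also moved with the replicate number of the loss libraries. Replicate 2 was above replicate 1 in 5 of 5 clones for 4 of the 10 genes, DCT, PMEL, TYR and TRPM1. DCT was at 287 and 1777 CPM in the libraries of 7p-loss clone 1. With the loss libraries numbered 1 alone against all WT libraries, a comparison chosen after seeing the data, DCT was at -2.10 (SE 0.23, adjusted p = 0.0048), and with those numbered 2 at -0.31 (SE 0.29, adjusted p = 1.00). MLANA was called with either number (-3.19 and -2.89).

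TYR, the rate-limiting enzyme of melanin synthesis, parted the clones. WT libraries were at 108, 158, 96.9 and 127 CPM. In 7p-loss clones 2 and 3 and both 8q-loss clones it lay between 0.0975 and 6.595 CPM, and in 7p-loss clone 1 it was at 587 and 1060. The pooled value was therefore 0.45 with an SE of 1.73, and without 7p-loss clone 1 it was -5.30 (SE 0.52, adjusted p = 0.000144). TYRP1 followed the same order, at 9.87 to 19.9 CPM in WT, 146 and 293 in 7p-loss clone 1 and 0.536 to 6.33 in the other clones (without that clone -2.17, SE 0.44, adjusted p = 0.0693). PMEL differed from WT by -1.92 to -1.55 in the means of the 7p-loss clones and by 0.01 and 0.22 in those of the 8q-loss clones. Within a replicate number the libraries of the arms did not overlap, at 188 to 216 CPM in 7p-loss and 895 and 1046 in 8q-loss libraries numbered 1, and at 583 to 985 and 1813 and 2093 in those numbered 2. MLANA was thus the 1 member of the list whose 10 loss libraries all lay below WT.

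**Figure D4:**
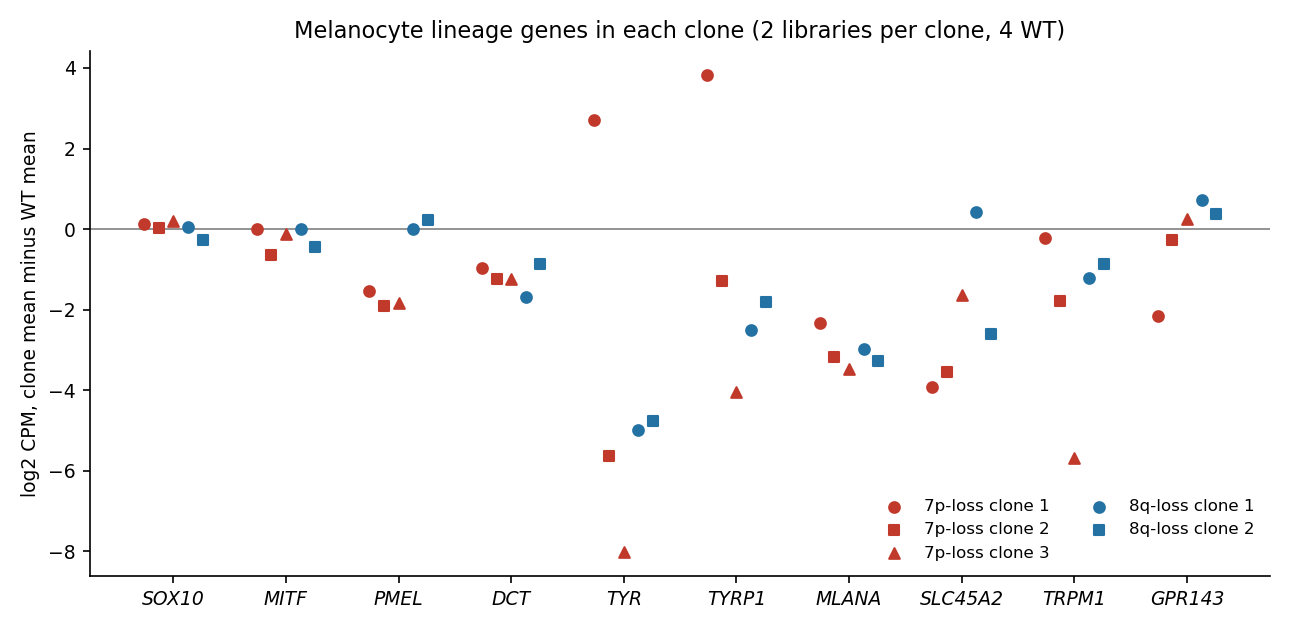
Log2 CPM of each clone minus the WT mean for the 10 pigment-cell genes; red marks are 7p-loss clones, blue marks 8q-loss clones, 2 libraries each. MLANA sits between -3.48 and -2.32 in all clones, and TYR between -8.01 and 2.71.

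TYR was not alone in this. Leaving out 7p-loss clone 1 gave 41 calls (0.273%), the 9 shared genes and 32 others, 9 of the 41 higher and 32 lower. In 28 of those 32 others, 7p-loss clone 1 differed from WT in the direction opposite to the 4 other clones, and in 22 by over 2-fold. This is a description, since a gene that clone 1 moved the other way could hardly pass with 5 clones. The same step for the other clones gave 0 such genes past 2-fold without 7p-loss clone 2, 7p-loss clone 3 or 8q-loss clone 1, and 4 without 8q-loss clone 2.

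From that group 6 genes are given here, chosen after their values were seen. ZNF518B was at 3.22 to 5.67 CPM in WT, 10.6 and 13.5 in 7p-loss clone 1, and at most 0.0488 in the 8 libraries of the other clones. SOX9, a transcription factor linked to low-pigment melanoma states, was at 3.43 to 9.91 CPM in WT, 94.9 and 143 in 7p-loss clone 1 and at most 0.725 elsewhere. AUTS2 was at 5.48 to 10.4 CPM in WT, 77.5 and 87.9 in that clone and at most 0.716 in the others. In the other direction, SCML1 was at 4.58 to 7.32 CPM in WT, 0.107 and 0.297 in 7p-loss clone 1 and 16.2 to 20.8 in the other clones. SMOC1, a secreted matrix protein, was at 33.2 to 63.2, then 0.392 and 0.892, then 71.7 to 301 CPM in the same order, and MAGEA1, a cancer-testis gene, at 55.2 to 64.9, 2.68 and 4.21, and 87.6 to 111. In each of these 6 genes the WT libraries lay between 7p-loss clone 1 and all 8 libraries of the other clones.

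**Figure D5:**
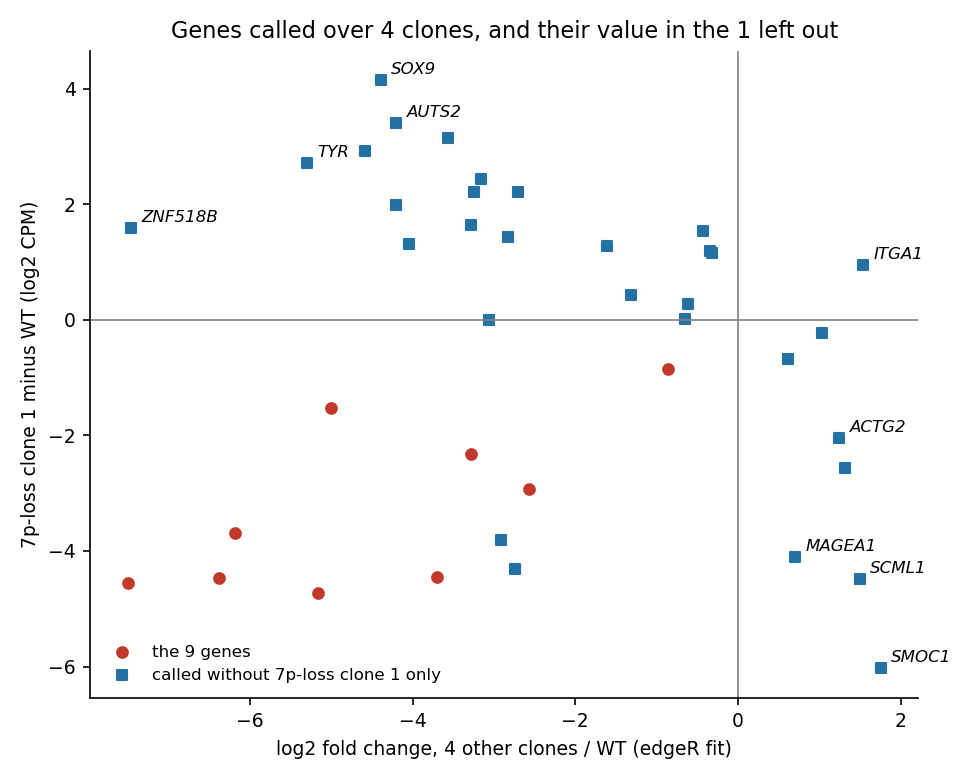
For genes called when 7p-loss clone 1 is left out, the fitted log2 fold change of the 4 other clones (x) against the difference of 7p-loss clone 1 from WT in log2 CPM (y); 1 gene on the Y chromosome is not drawn. The 9 shared genes (red) lie at the lower left, and most others (blue) have opposite signs on the axes, such as TYR at -5.30 and 2.71.

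Among genes that were not called, 2 had an adjusted p between 0.05 and 0.1, 1 higher and 1 lower, and the genes named here were chosen after their values were seen. The higher one was NLGN4Y, a neuroligin gene on the Y chromosome (log2 fold change 0.76, SE 0.14, adjusted p = 0.0686), which was higher in 5 of 5 clones and was called by DESeq2 (adjusted p = 6.33e-05), with 3 groups in edgeR (0.0373) and without 7p-loss clone 1 (0.0491). The lower one, PIK3AP1, an adaptor of PI3-kinase signalling, had 0.960 to 1.48 CPM in WT and 0 to 0.403 in the loss libraries (log2 fold change -3.23, SE 0.59, adjusted p = 0.0849). It was called by DESeq2 (adjusted p = 0.000154), by limma voom with clone as a random effect (0.0352), with 3 groups in edgeR (0.0459) and without 7p-loss clone 1 (0.0162). ITGA1, a collagen-binding integrin chain, was at 135, 172, 162 and 126 CPM in WT replicates 1 to 4 and at 215 to 674 (median 365) in the loss libraries. Its groups did not overlap, yet its log2 fold change of 1.45 (SE 0.29) had an adjusted p of 0.181, and of 0.0321 without 7p-loss clone 1. ZNF607 (-3.07, SE 0.63), CSF2RA (-3.25, SE 0.73) and POSTN (-2.78, SE 0.67) differed from WT by more than 2-fold in the mean of each clone, with adjusted p-values of 0.188, 0.296 and 0.418. DESeq2 called all 3 (0.00284, 0.0498 and 0.0488), and CSF2RA was also called with 3 groups in edgeR (0.000385) and by limma voom (0.0131), POSTN by limma voom (0.0453) and ZNF607 without 7p-loss clone 1 (0.0259). Other settings did not call these genes. With each clone's libraries summed, none of the genes named in this paragraph was called. NLGN4Y, ITGA1 and ZNF607 were not called by limma voom, and ITGA1, ZNF607 and POSTN not with 3 groups. Without 7p-loss clone 1, CSF2RA (0.122) and POSTN (0.227) were not called.

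The 21 gene lists held 324 tested genes, and 3 were called: MLANA, MAGEC2 and COL3A1. Over all genes tested outside 7p and 8q 0.0595% were called and 4.46% had an unadjusted p under 0.05; the lists were chosen with earlier results of these data known, so their counts are a description. Among 26 matrix and adhesion genes edgeR gave no call and DESeq2 gave 1, ITGA1, and the unadjusted p was under 0.05 for 11, all higher. The list's median was 0.34, and the clone medians were 0.70, 0.43, 0.13, 0.35 and -0.06, the last in 8q-loss clone 2. Besides ITGA1, LAMA4 was at 113 and 196 CPM in WT and loss libraries (log2 fold change 0.80, adjusted p = 0.694) and MMP1, a collagenase, at 607 and 1600 CPM (1.40, adjusted p = 0.975; -0.54 in 8q-loss clone 2). Among 17 collagen chains COL3A1 was the 1 called, and the list's median was -0.10. Of 17 cancer-testis genes MAGEC2 was called, while MAGEA10 was at 4.36 CPM in WT and 22.8 in the loss libraries (2.39, SE 0.51, adjusted p = 0.252; DESeq2 called it). It did not differ in all clones, since MAGEA10 was at 3.91 and 6.30 CPM in 8q-loss clone 2, near the 3.84 to 4.92 of WT, and at 16.8 to 38.1 in the other 4 clones. The median of that list was 0.00. The 25 interferon-stimulated genes gave no call by either tool, and 5 were higher at an unadjusted p under 0.05, such as OAS1 at 1.76 and 4.81 CPM (1.45, adjusted p = 0.888; -0.11 in 7p-loss clone 1).

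Lists of general cell functions gave no call by edgeR or DESeq2, and 0 to 2 members of each had an unadjusted p under 0.05, which at these list sizes says little beside the 4.46% of all genes. These were the p53 targets (17 tested, median 0.02), the amino acid starvation response (17, 0.06), the unfolded protein response (17, 0.10), replication and mitosis (21, 0.04), cholesterol synthesis (16, 0.07) and cytosolic heat shock (13, -0.10). The 13 mitochondrially encoded genes had a median of -0.21, and 11 of them had lower means in 5 of 5 clones with 0 called. These genes moved with the replicate number, since all 13 were higher in replicate 2 than in replicate 1 of 5 of 5 clones. With the loss libraries numbered 1 alone the median was -0.64 (13 of 13 lower in 5 of 5 clones), and with those numbered 2 alone it was 0.11 (0 of 13). The mitochondrial share was 2.52% in WT replicate 3 and 3.47% to 4.12% in the other WT libraries, and its part in other results was not tested.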

How the data were processed

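Raw counts per gene were deposited by the authors, 1 table per library, with gene symbols and GRCh38 coordinates; 58724 of 58735 genes match GENCODE 29 in start and end. HISAT2 2.0.5, featureCounts 1.5.0-p3 and hg38 are named in the submitters' processing notes, with no role given. The strand setting is not given in the sources used here, so a gene and an overlapping gene on the other strand cannot be told apart. Per the labels' protocols, RNA was isolated with a Qiagen kit and selected with poly-T beads.

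The test was the quasi-likelihood F-test of edgeR 4.0.16 on 10 loss against 4 WT libraries. It used TMM scaling and the filter filterByExpr (counts of at least 10, a total of at least 15). Two-sided p-values were adjusted over all 15751 genes tested (Benjamini-Hochberg), with calls made at adjusted p under 0.05. Genes on 7p (260) and 8q (357) were then left out. SE is that of the log2 fold change. CPM is the count scaled to a common library size after TMM. Clone differences are means of log2 CPM (prior count 2), which shrink low genes toward 0. The comparison of the arms used a fit of 3 groups. Intervals on ratios of counts are exact (conditional binomial, 95%) and cover counting error only. Scripts were tested on simulated data. Alternatives used DESeq2 1.42.0 and limma 3.58.1 in R 4.3.3. Summaries were made in Python 3.11.15 with pandas 2.3.3, numpy 2.4.6 and scipy 1.17.1, and plots with matplotlib 3.10.9.

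The libraries of a clone are not independent, and the labels do not say whether replicates are separate cultures, so p-values measure the spread between these samples only. The libraries of a clone, or of WT, differed by more than counting noise (chi-square per degree of freedom 6.5 to 38.5). Named genes are protein-coding, called, changed in 1 direction in 5 of 5 clones and at 1 CPM or more in the higher group, up to 12 per direction, or called members of the lists. The members and lists were chosen with earlier results of these data known. Alternatives were other tools, scalings, filters, units of replication and subsets of libraries.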

Additional observations from a re-analysis of the deposited data

Results flagged for a closer look

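Over the 9 shared genes, 27 groups of 4 or 6 libraries were examined for a library far from the others of its group, and 5 were found. Each flagged value was the highest of a group that was otherwise at or near 0. The usual chance rate of about 5% of groups does not carry over to such groups, where 1 or 2 counts stand out. In 8q-loss clone 2 replicate 1, ATP10A and CPPED1 were each at 0.0483 CPM, which is 1 count, and in 7p-loss clone 2 replicate 1 CPPED1 was at 0.0892 CPM, 2 counts. In 8q-loss clone 2 replicate 2 PTPRD was at 0.0463 CPM, 1 count. In 7p-loss clone 2 replicate 2 ZNF558 was at 0.490 CPM, 10 counts, against 1 count in the other library of that clone. Without that library the adjusted p of ZNF558 was 0.00507.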

How the results depend on the processing

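The same 9 genes were called with RLE size factors and with 7p and 8q genes removed before the fit, and 9 genes, 7 of them the same, with no filter and without 7p-loss clone 3. The number called moved to 49 with DESeq2 (47 of them in 1 direction in 5 of 5 clones), to 18 with 3 groups (16), and to 41 without 7p-loss clone 1 and 22 without 8q-loss clone 2 (41 and 22 over the 4 clones left). It was 3 with a mean CPM of at least 1, which tests fewer genes. Clones summed and WT replicates 3 and 4 only each gave 5, 4 of them among the 9. WT replicates 1 and 2 only also gave 5, all among the 9. In these settings both counts were the same. Leaving out single libraries gave 6 to 9. The loss libraries numbered 1 alone against all WT gave 10 (6 of the 9 among them) and those numbered 2 alone 6 (all among the 9), 2 settings chosen after seeing the data. With the replicate number as a block it was 4 for both counts, all among the 9, in a fit where WT replicates 3 and 4 have no partner. The deviations of same-numbered libraries from their clone or WT mean correlated at 0.22 to 0.45 between loss clones (20 pairs) and at -0.11 to 0.11 between WT and loss libraries (10 pairs), so the number goes with a shared deviation among the loss libraries. With 2 libraries per clone, the pairs numbered 1 and 2 of any 2 clones have the same value by construction, so the 20 pairs are not separate values. Only WT replicates 1 and 2 share a number with the loss libraries. WT replicate 3 correlated at 0.24 to 0.35 with loss libraries numbered 1, and WT replicate 4 at 0.13 to 0.43 with those numbered 2 (5 pairs each), and whether these libraries were handled together was not tested. limma voom with clone as a random effect called 11, and leaving out 7p-loss clone 2 or 8q-loss clone 1 gave 7 and 6. Beyond the tests and samples these settings remove, the cause of the moves was not tested. At 0 to 3 counts per loss library, clones cannot be ranked for ATP10A, CPPED1 and PTPRD.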
